A study of Oreochromis niloticus with 8 samples.

Results

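The aminoacyl-tRNA synthetase genes of the Nile tilapia (Oreochromis niloticus, a warm-water cichlid fish) were followed in midbrain RNA of fish kept at normothermy (control, 4 libraries) and of cold-exposed fish (cold, 4 libraries). Members were the rows whose name is that of a synthetase, given as the letter of the amino acid followed by ars, with or without a digit, together with farsa, farsb and eprs. This rule found 34 of the 29533 listed genes. By name alone, the 15 that end in 2 were taken as mitochondrial and the other 19 as cytosolic. All 34 reached a mean of at least 1 TPM (transcripts per 1000000, a level corrected for gene length and scaled to the same total in every library) in a group, so every member was tested. The labels give neither the temperature, the length of the exposure, nor the age, sex or strain of the fish. They do not say that each library is 1 fish, so the tests measure how far these libraries spread, which may be technical.

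An aminoacyl-tRNA synthetase joins an amino acid to the transfer RNAs (tRNAs) that carry it to the ribosome. Animal cells hold a set for the cytosol and a set, encoded in the nucleus and imported, for the ribosomes inside mitochondria, which make a few core subunits of the respiratory chain. In mammals, a single gene serves both compartments for lysine and for glycine, and mitochondrial glutaminyl-tRNA is made by converting a glutamate attached to its tRNA. The lysine gene kars was counted as cytosolic here, so the cytosolic counts and sums may include transcripts that serve both compartments. Inherited loss of some mitochondrial synthetases in people affects the brain.

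The libraries formed the groups given by the labels on the first principal component (43.4% of the variance), and control 4 and cold 2 stood apart from the other libraries on the second (16.9%). Neuronal markers (such as snap25) and midbrain markers (such as en1b and otx2b) were present. Of the tested markers, 2 of 9 neuronal, 3 of 6 midbrain, 3 of 4 microglial, 2 of 7 oligodendrocyte, 2 of 7 radial glial and 1 of 6 pituitary genes were lower in cold by limma at an adjusted p under 0.05, against 23.6% of all genes. None of these lists nor the 2 tested red blood cell genes held a rise, against 13.0% of all genes. After rescaling by the median of ratios, 1 oligodendrocyte gene was higher, and 2 midbrain, 2 microglial and 1 radial glial genes were lower, with the counts of the other lists as before. With that rescaling 18.5% of all genes were higher and 16.8% lower. Summed levels ran from 6026 to 6568 TPM in control and 5661 to 6346 TPM in cold for neuronal markers and from 59.0 to 88.5 and 39.1 to 58.5 TPM for midbrain markers. They ran from 961 to 1543 and 1298 to 1456 TPM for microglial markers, where p2ry12 stood at a mean of 25.2 TPM in control against 2.25 TPM in cold. For oligodendrocyte markers they ran from 9285 to 12985 and 10117 to 12414 TPM, and for radial glial markers from 5185 to 5800 and 4350 to 5695 TPM. Pituitary markers summed to between 25.0 and 39.4 and between 14.1 and 38.5 TPM, with prl listed at 0 in every control library, and red blood cell markers to between 14.5 and 89.4 and between 23.0 and 112 TPM. The highest single gene had a mean over the 8 libraries of 3803 TPM (neuronal), 1232 TPM (microglial) and 8344 TPM (oligodendrocyte). These 3 sums thus rest mostly on 1 gene each. The part of these marker levels in the results on synthetases was not tested. In bulk tissue, fewer cells of a type and less RNA per cell cannot be told apart.

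Cytosolic synthetase transcripts were more abundant than mitochondrial ones. Mean TPM over the 8 libraries ran from 8.09 (mars, methionine) to 146 (sars, serine) among the cytosolic genes, with a median of 27.4, and from 2.30 (mars2) to 24.4 (vars2, valine) among the mitochondrial genes, with a median of 9.09. After sars, the highest cytosolic levels were those of hars (histidine), at 127 ± 13.6 TPM in control and 122 ± 6.69 TPM in cold (SD, n = 4), and of nars (asparagine), at 109.7 ± 11.4 and 119 ± 10.4 TPM. Among the members, valine and isoleucine went against this order of levels. For these the mitochondrial genes vars2 (29.0 ± 1.38 TPM in control) and iars2 (22.0 ± 1.97 TPM) stood above the cytosolic genes vars (10.5 ± 0.713 TPM) and iars (16.9 ± 1.98 TPM).

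In cold, 5 mitochondrial synthetase genes fell, those of arginine, valine, serine, asparagine and methionine. Their mean TPM changed by between -31.4% (vars2) and -51.7% (mars2), and in each of the 5 the cold libraries lay below every control library. The other called members moved less and in both directions. These were lars (leucine), which fell, and farsb (the beta subunit for phenylalanine), vars (cytosolic valine) and yars2 (mitochondrial tyrosine), which rose. By limma, with p adjusted by the Benjamini-Hochberg method over the 18863 genes tested, 9 of 34 members (26.5%) were called at an adjusted p under 0.05, 3 higher and 6 lower. Of all genes tested 36.7% were called, 13.0% higher and 23.6% lower. The share among the 34 members was below that background, a difference that was not tested. Among the mitochondrial members 6 of 15 (40.0%) were called, a share near that of all genes, and among the cytosolic members 3 of 19 (15.8%). The median log2 change (cold minus control, on log2(TPM + 1)) was -0.19 for mitochondrial members, -0.04 for cytosolic members and -0.09 for all genes tested. The mitochondrial median was -0.12 without cold 1, and the cytosolic one -0.02 without control 3 or without cold 4.

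**Figure D1:**
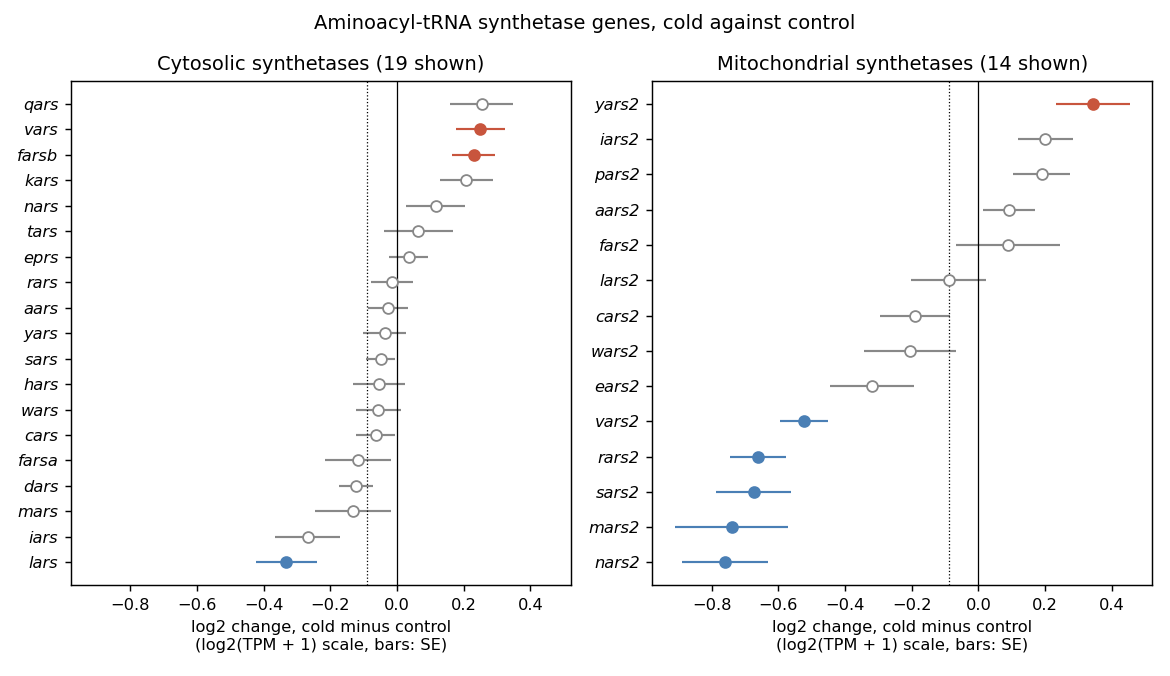
Log2 change in cold of the synthetase genes reported by name (x axis, log2(TPM + 1) scale, cold minus control, bars are SE, 4 libraries per group), cytosolic genes on the left and mitochondrial genes on the right. Filled points passed limma's test (red rose, blue fell), open points did not, and the dotted line is the median of all genes at -0.09. The 5 blue points at the bottom of the mitochondrial panel lie between -0.76 and -0.52, below every cytosolic gene.

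The gene rars2, for the mitochondrial arginine enzyme, had the lowest p of the family. It measured 15.9, 15.7, 15.9 and 15.7 TPM in control 1 to 4 and 8.95, 8.61, 11.0 and 10.1 TPM in cold 1 to 4. The control libraries were almost level, and all cold libraries were lower. The log2 change was -0.66 ± 0.08 (SE; limma adjusted p = 4.78e-04).

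The gene vars2, for the mitochondrial valine enzyme, has the highest mean level of the mitochondrial members. It measured 27.4, 28.5, 29.3 and 30.7 TPM in control 1 to 4 and 19.2, 18.4, 22.0 and 19.9 TPM in cold 1 to 4. The highest cold library, cold 3, lay below the lowest control library, control 1. The log2 change was -0.52 ± 0.07 (limma adjusted p = 6.89e-04).

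The gene sars2 charges the serine tRNAs of mitochondria. It measured 8.14, 8.29, 9.61 and 6.67 TPM in control 1 to 4 and 4.61, 5.15, 4.28 and 4.84 TPM in cold 1 to 4. Control 4 was the lowest control library and still above all cold libraries. The log2 change was -0.67 ± 0.11 (limma adjusted p = 0.00194).

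The gene nars2, for the mitochondrial asparagine enzyme, had a log2 change close to that of mars2. It was the more negative of the pair or not depending on the pseudocount, the scaling and the inclusion of control 1, control 2 or cold 4. It measured 12.4, 13.4, 12.9 and 12.6 TPM in control 1 to 4 and 6.92, 9.09, 7.65 and 5.41 TPM in cold 1 to 4. The cold libraries were more spread than the control libraries (SD 1.53 against 0.422 TPM) but did not reach them. The log2 change was -0.76 ± 0.13 (limma adjusted p = 0.00210).

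The gene mars2, for the mitochondrial methionine enzyme, was the lowest of the family. It measured 2.73, 2.96, 3.46 and 3.24 TPM in control 1 to 4 and 1.24, 1.35, 1.02 and 2.36 TPM in cold 1 to 4. Cold 4 stood above the other cold libraries and nearest to control. The log2 change was -0.74 ± 0.17 (limma adjusted p = 0.00900), and -0.89 without cold 4 (adjusted p = 0.00206).

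The mitochondrial tyrosine gene yars2 went the other way. It measured 7.74, 5.76, 8.48 and 7.36 TPM in control 1 to 4 and 9.18, 10.2, 9.23 and 9.41 TPM in cold 1 to 4. All cold libraries were higher, control 3 being nearest to them. The log2 change was 0.34 ± 0.11 (limma adjusted p = 0.0372). The call rested on many libraries, since without control 1, 2 or 4 or any cold library the adjusted p lay between 0.0547 (without control 1) and 0.0822 (without cold 2).

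The other 9 mitochondrial members did not pass. On the log2 scale, the largest of their differences was that of ears2 (glutamate), with 7.36 ± 0.942 TPM (control) and 5.72 ± 0.911 TPM (cold), with an adjusted p by limma of 0.0764. Those of wars2 (tryptophan, 4.83 and 4.08 TPM), cars2 (cysteine, 24.2 and 21.1 TPM) and lars2 (leucine, 9.39 and 8.79 TPM) were lower in cold within overlapping groups. The means of fars2 (phenylalanine, 4.93 and 5.34 TPM), aars2 (alanine, 16.5 and 17.6 TPM), pars2 (proline, 8.22 and 9.52 TPM) and iars2 (22.0 and 25.4 TPM) were higher in cold, again with overlap. Over these 9 genes the 95% intervals of the log2 change reached from -0.60 to 0.44, and only that of ears2 (-0.60 to -0.03) reached the log2 change of vars2.

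**Figure D2:**
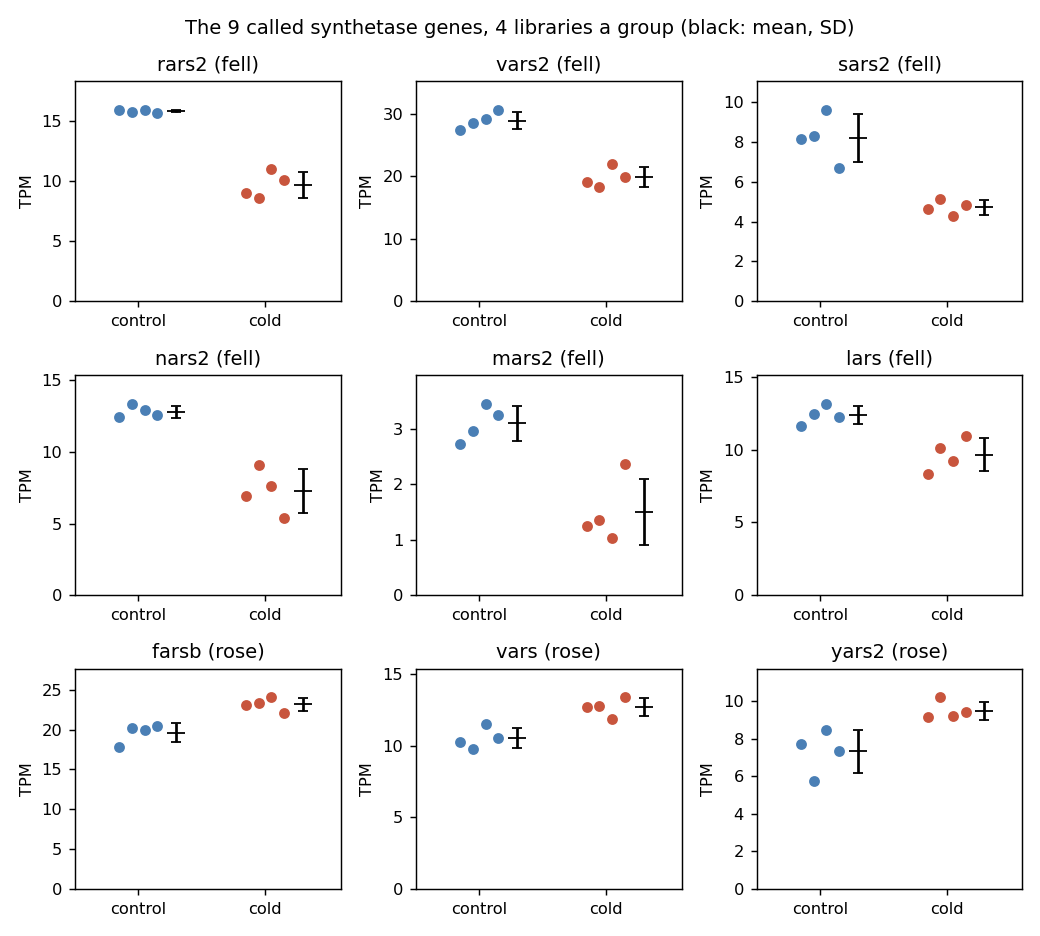
TPM (y axis, from 0) of the 9 synthetase genes that passed limma's test, with 1 point per library (blue control, red cold, replicates 1 to 4 from left to right) and the mean with SD in black. In each panel the 2 groups do not overlap, as for rars2 (15.8 ± 0.114 TPM in control, 9.66 ± 1.10 TPM in cold).

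Among cytosolic genes the differences were small. The gene lars, for the leucine enzyme that also serves as a leucine sensor in mammals, measured 11.6, 12.5, 13.2 and 12.3 TPM in control 1 to 4 and 8.35, 10.1, 9.20 and 11.0 TPM in cold 1 to 4. All cold libraries were lower, and the log2 change was -0.33 ± 0.09 (limma adjusted p = 0.0200). The call was lost without control 3 (limma adjusted p = 0.0576) or cold 3 (0.0524), and without control 4 and cold 2 together (0.0524). It was also lost after rescaling by the median of ratios (0.0624).

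The gene farsb, whose product pairs with that of farsa to form the cytosolic phenylalanine enzyme, measured 17.8, 20.2, 20.0 and 20.5 TPM in control 1 to 4 and 23.1, 23.3, 24.0 and 22.1 TPM in cold 1 to 4. All cold libraries were higher, and the log2 change was 0.23 ± 0.06 (limma adjusted p = 0.0219; 0.0526 without control 1 and 0.0602 without cold 3). Its partner subunit gene farsa measured 15.1 ± 0.979 and 13.9 ± 1.76 TPM, with overlapping groups (log2 change -0.12 ± 0.10, limma adjusted p = 0.382).

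The gene vars, for the cytosolic valine enzyme, measured 10.2, 9.80, 11.5 and 10.6 TPM in control 1 to 4 and 12.7, 12.8, 11.9 and 13.4 TPM in cold 1 to 4. The groups were separate by a small margin, control 3 and cold 3 being nearest, and the log2 change was 0.25 ± 0.07 (limma adjusted p = 0.0271). Without control 1, 2 or 4 or cold 1, 2 or 4 the adjusted p lay between 0.0519 (without cold 2) and 0.0713 (without control 2). In the reference gene table vars overlaps abhd16a, which was higher in cold too (61.5 and 71.3 TPM, log2 change 0.21, limma adjusted p = 0.00896), and reads shared by overlapping genes cannot be told apart here.

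The other 16 cytosolic members did not pass. Their log2 changes lay between -0.27 (iars, 16.9 ± 1.98 to 13.8 ± 1.31 TPM, limma adjusted p = 0.0588) and 0.25 (qars, glutamine, 18.9 ± 2.40 to 22.7 ± 1.54 TPM, limma adjusted p = 0.0627), and their 95% intervals from -0.49 to 0.47. As examples, the interval of sars (148 ± 5.05 and 143 ± 2.92 TPM) was -0.15 to 0.05, that of aars (alanine, 75.3 and 74.0 TPM) -0.16 to 0.11 and that of eprs (the joint glutamate and proline enzyme, 38.9 and 39.9 TPM) -0.10 to 0.16. The aspartate gene dars was separate between groups (78.5 to 83.2 TPM in control and 71.8 to 78.5 TPM in cold) but did not pass limma's test (log2 change -0.12 ± 0.05, adjusted p = 0.0869). The remaining genes measured, in control and cold, 8.53 and 7.65 TPM (mars), 28.0 and 26.7 TPM (cars, cysteine), 42.9 and 41.2 TPM (wars, tryptophan), 55.8 and 54.4 TPM (yars, tyrosine), 23.3 and 23.0 TPM (rars, arginine), 10.8 and 11.3 TPM (tars, threonine) and 56.3 and 65.4 TPM (kars, lysine).

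Groups did not overlap for 10 of 34 members, 3 higher and 7 lower in cold, against 36.9% of all genes tested (13.4% higher and 23.4% lower). The direction of small changes depended on the scaling. TPM sums to a fixed total in each library, and rescaling by the median of ratios moved the median log2 change of all genes from -0.09 to 0.00. With it, 7 members were higher and 5 lower, against 18.5% and 16.8% of all genes, because kars, qars, pars2 and iars2 passed as higher (limma adjusted p between 0.0139 and 0.0350) and lars did not pass. The 5 mitochondrial falls kept their call under rescaling, with log2 changes between -0.67 and -0.43. The signs of 7 uncalled cytosolic members turned from negative to positive. Without control 4 and cold 2 limma called 6 members, against 29.4% of all genes, and with the replicate number as a block it called 8, against 29.9%.

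Summed over genes in TPM, without rescaling, the cytosolic members were level between groups and the mitochondrial ones were lower in cold. The 19 cytosolic genes summed to 883, 897, 903 and 918 TPM in control 1 to 4 and to 915, 889.6, 903 and 887 TPM in cold 1 to 4, with overlap. The 15 mitochondrial genes summed to 198, 184, 202 and 194 TPM in control and to 163, 172, 175 and 171 TPM in cold, where every cold library lay below every control library. The mitochondrial share of the summed TPM of the 34 members was 17.8 ± 0.631% in control and 15.9 ± 0.521% in cold (SD, n = 4). The threonine genes tars2 (30.5 and 26.1 TPM in control and cold) and tars3 (24.5 and 24.7 TPM) lie outside the rule and are not in these sums. Since the 5 fallen genes were picked by their change, it follows from the choice that they carry the difference. They summed to 68.8 ± 1.85 TPM (control) and 43.0 ± 2.15 TPM (cold), and the other 10 mitochondrial genes to 126 ± 7.45 and 127 ± 3.21 TPM. These sums are descriptions and were not tested. They were not computed after rescaling by the median of ratios, and both their levels and their overlap depend on the scaling. With that rescaling the median log2 change moved from -0.04 to 0.06 for cytosolic members and from -0.19 to -0.10 for mitochondrial members. The mitochondrial share, taken within each library, does not depend on the scaling.

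**Figure D3:**
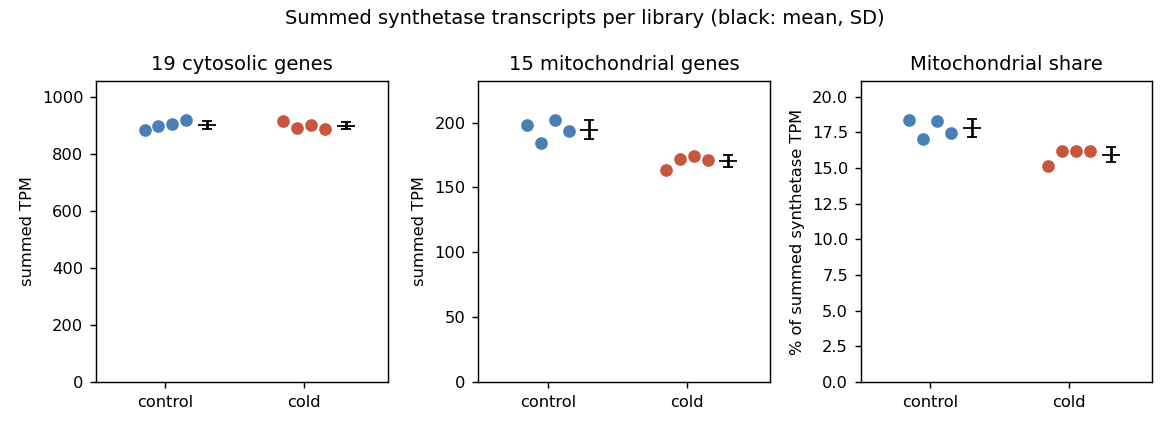
Summed TPM of the 19 cytosolic genes (left), of the 15 mitochondrial genes (middle) and the mitochondrial percentage of both sums (right), with 1 point per library and the mean with SD in black, all axes from 0. In TPM, without rescaling, the cytosolic sums overlap between groups, while the mitochondrial sums (184 to 202 TPM in control, 163 to 175 TPM in cold) do not.

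Whether the 2 genes of 1 amino acid changed unequally was tested directly, on the difference between log2(TPM + 1) of the cytosolic and of the mitochondrial gene within each library. Such a ratio does not depend on the scaling of the library, apart from the pseudocount. Of 16 pairs, 7 were separate between groups, 5 with a higher and 2 with a lower ratio in cold. Each of the 7 had a two-sided exact permutation p of 0.0286, unadjusted, which is the smallest that 4 against 4 libraries can give. Among all genes taken singly, 36.9% were separate between groups, and no such share was computed for ratios of other gene pairs. Pairs share genes where eprs stands for both glutamate and proline and fars2 for both phenylalanine subunits.

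The 5 pairs whose ratio rose were those of the fallen mitochondrial genes. Since these genes were called as lower on the same values, the rise of their ratios largely follows and is not separate support for the falls. The ratio of vars to vars2 was -1.34, -1.45, -1.28 and -1.45 in control 1 to 4 and -0.55, -0.49, -0.84 and -0.54 in cold 1 to 4. The mitochondrial gene thus stood above the cytosolic one in all libraries, by less in cold, and the mean ratio was 0.77 ± 0.09 (SE) higher. For asparagine (nars and nars2) the ratio rose by 0.88 ± 0.14, to 3.87, for arginine by 0.65 ± 0.09, from 0.53 to 1.18, for serine by 0.62 ± 0.11, from 4.03 to 4.66, and for methionine by 0.61 ± 0.15, from 1.21 to 1.82.

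The ratios of tyrosine and isoleucine were lower in cold. The gene yars2 was itself called as higher on the same values, so its ratio is not separate support for that rise. That of yars to yars2 measured 2.74, 3.11, 2.63 and 2.64 in control 1 to 4 and 2.54, 2.35, 2.37 and 2.33 in cold 1 to 4, a difference of -0.38 ± 0.12. That of iars to iars2 measured -0.54, -0.22, -0.39 and -0.31 in control 1 to 4 and -0.77, -0.99, -0.81 and -0.75 in cold 1 to 4, a difference of -0.47 ± 0.09, although neither gene passed limma's test alone. The differences of the other 9 pairs lay between -0.24 ± 0.14 (lars and lars2) and 0.35 ± 0.15 (eprs and ears2), with overlapping groups and exact permutation p between 0.0857 and 0.486.

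**Figure D4:**
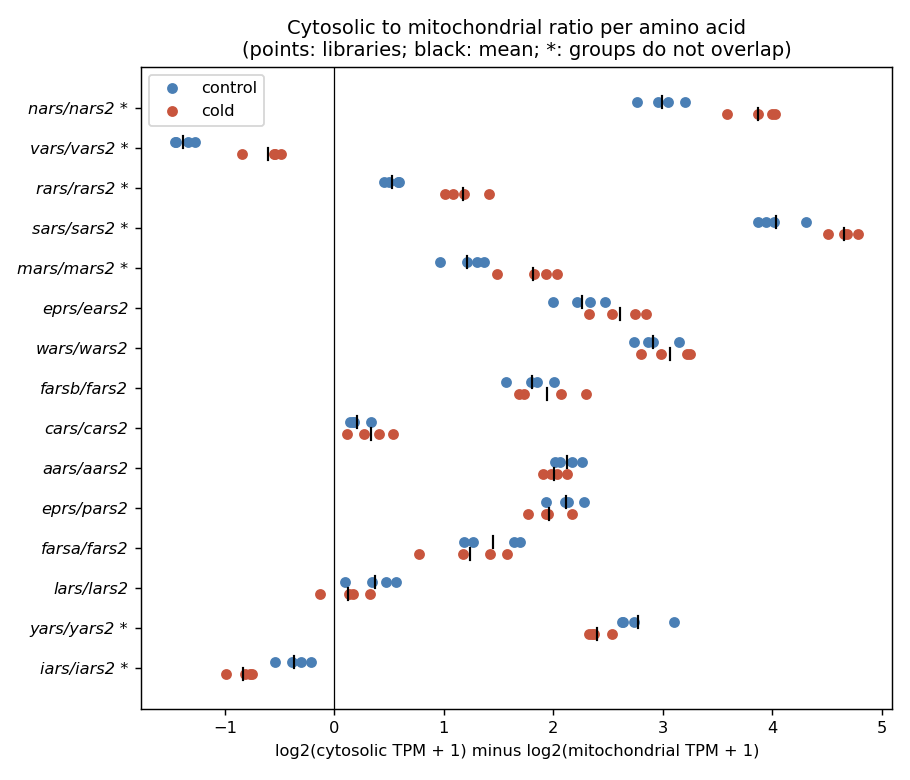
Difference between log2(TPM + 1) of the cytosolic and the mitochondrial gene of each amino acid (x axis) in each library (blue control, red cold, black line the mean), with 1 row for each pair shown, from the most positive to the most negative change. Asterisks mark the 7 pairs whose groups do not overlap, 5 shifted to the right in cold and 2 (yars/yars2 and iars/iars2) shifted to the left.

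The called members did not share a structural class. Synthetases fall into 2 unrelated folds, class I and class II, and the mitochondrial falls were of both, 3 of 9 class I genes (mars2, rars2, vars2) and 2 of 6 class II genes (nars2, sars2). Their levels in control spanned the range of the mitochondrial genes, from 3.10 TPM (mars2) to 29.0 TPM (vars2). Of the 8 cytosolic enzymes that join the multisynthetase complex in mammals (those of eprs, iars, lars, mars, qars, rars, kars and dars), 1 gene fell (lars) and 7 did not pass, and of the 11 outside it 2 rose (farsb and vars). Of all genes tested 23.6% fell and 13.0% rose, and differences between these small subsets were not tested.

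Genes that act beside the synthetases in charging tRNAs included 1, trnt1, whose change was larger than that of any synthetase gene. Of 16 tested members of this list, 2 rose and 5 fell (13.0% and 23.6% of all genes), with a median log2 change of -0.18. The list also holds tars3, a cytosolic threonine synthetase gene that the rule does not cover and that was not called. The count of 7 (43.8%, against 36.7% of all genes) was 4 without control 2, where 5823 of all 18880 genes tested were called. The product of trnt1 is the enzyme that adds the CCA end to every tRNA, in the cytosol and in mitochondria, before an amino acid can be attached. It measured 16.5, 13.6, 15.1 and 14.3 TPM in control 1 to 4 and 4.81, 4.11, 4.15 and 3.76 TPM in cold 1 to 4. Every cold library was below 5 TPM and every control library above 13 TPM, and the log2 change was -1.61 ± 0.09 (limma adjusted p = 1.25e-05).

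The 3 scaffold genes of the multisynthetase complex went different ways. The gene eef1e1 fell from 82.0 ± 0.848 to 59.9 ± 2.50 TPM (-0.45 ± 0.05 on the log2 scale, adjusted p by limma 2.05e-04), aimp2 rose from 68.2 ± 3.75 to 84.5 ± 3.10 TPM (0.31 ± 0.06, limma adjusted p = 0.00298), and aimp1 measured 48.9 ± 2.31 and 47.9 ± 2.06 TPM (limma adjusted p = 0.744). The other called genes of lowest p included a pair of enzymes that make selenocysteine on its tRNA. The gene pstk of the first step rose (9.004 to 13.1 TPM with overlapping groups, adjusted p by limma 0.0213) and sepsecs of the second fell (12.5 to 8.61 TPM, limma adjusted p = 0.00355). The gene dtd2, of an enzyme that removes wrongly attached amino acids, fell (11.0 to 6.73 TPM with overlapping groups, adjusted p by limma 0.0307). The subunit genes of the mitochondrial amidotransferase that makes glutaminyl-tRNA did not pass, at 12.6 and 14.2 TPM (qrsl1), 16.3 and 17.2 TPM (gatb) and 51.3 and 50.3 TPM (gatc) in control and cold.

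Genes of mitochondrial transcription, tRNA maturation and translation held falls as well. Of 19 tested, 2 rose and 9 fell (13.0% and 23.6% of all genes), with a median log2 change of -0.26 against -0.09 for all genes. After rescaling 3 rose and 6 fell (18.5% and 16.8% of all genes), and without control 4 and cold 2 the 11 calls became 7 (29.4% of all genes). The 6 of lowest p were all falls. Among them were the genes of 3 enzymes that modify the wobble base of some mitochondrial tRNAs. The gene trmu measured 8.48, 9.28, 8.74 and 9.10 TPM in control 1 to 4 and 5.30, 5.43, 4.73 and 4.95 TPM in cold 1 to 4 (log2 change -0.70 ± 0.08, limma adjusted p = 2.75e-04), with all cold libraries lower.

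The partners gtpbp3 and mto1, which work as a pair on the same base, fell from 4.96 ± 0.891 to 2.21 ± 0.390 TPM (-0.89 ± 0.14, limma adjusted p = 0.00165) and from 2.999 ± 0.462 to 1.54 ± 0.369 TPM (-0.66 ± 0.15, limma adjusted p = 0.00790). The initiation factor gene mtif3 fell from 10.1 to 5.30 TPM, the ribosome recycling factor gene mrrf from 11.6 to 7.02 TPM and tfb1m, of a methyltransferase of mitochondrial ribosomal RNA, from 9.81 to 6.23 TPM (limma adjusted p = 4.86e-04, 0.00251 and 0.00361). Their log2 changes lay between -0.89 and -0.59, and those of the 5 mitochondrial synthetase genes between -0.76 and -0.52. Both sets were picked by their limma results, so that both ranges lie below 0 follows from the choice, and they were not compared by a test. The rises were those of trmt10c, a subunit of the enzyme that trims mitochondrial tRNAs at the 5′ end (11.4 to 15.1 TPM), and of tfb2m (40.1 to 46.2 TPM, limma adjusted p = 0.0499). Without control 2 the list held 0 rises and 10 falls, where 2094 of all 18880 genes tested rose and 3729 fell.

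Cytosolic synthetase genes are, in mammals, among the targets of the amino acid response, in which uncharged tRNA activates the kinase GCN2 (gene eif2ak4) and the transcription factor ATF4 is made. Of 38 tested genes of this pathway, 10 rose and 3 fell, against 13.0% and 23.6% of all genes. The median log2 change of the list lay within 0.01 of 0, against -0.09 for all genes. After rescaling by the median of ratios it was 0.0968, against -0.0011 for all genes. The rises were 7 without cold 1 (2321 of all 18902 genes tested) and 7 without cold 4 (2197 of 18873). They were also 7, of 39 tested, without control 4 and cold 2 (2061 of all 18795 genes). The gene eif2ak4 rose from 17.3 ± 1.21 to 20.0 ± 0.592 TPM (0.21 ± 0.07 on the log2 scale, adjusted p by limma 0.0403). Of the ATF4 copies, atf4b rose from 298 ± 6.28 to 389 ± 13.5 TPM (limma adjusted p = 2.88e-04) and atf4 measured 161 ± 10.2 and 167 ± 9.34 TPM (limma adjusted p = 0.533).

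The members of this list did not move together. The pseudokinase gene trib3 measured 2.08, 1.75, 2.23 and 1.86 TPM in control 1 to 4 and 6.33, 7.07, 7.80 and 8.68 TPM in cold 1 to 4, so that all cold libraries were higher (log2 change 1.502 ± 0.12, limma adjusted p = 4.82e-05). Rises were also found for cebpb (23.1 to 45.9 TPM), pycr1a, of proline synthesis (13.9 to 19.3 TPM), and ddit4, an inhibitor of mTOR signalling (314 to 445 TPM). The asparagine synthetase gene asns, a classical ATF4 target, fell from 21.7 ± 0.697 to 15.7 ± 0.849 TPM (-0.44 ± 0.06, limma adjusted p = 8.51e-04). Beside the 10 of 38 genes of this list that rose stand 2 of 19 cytosolic synthetase genes and 13.0% of all genes. After rescaling by the median of ratios these were 11 of 38, 4 of 19 and 18.5%. The differences were not tested.

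**Figure D5:**
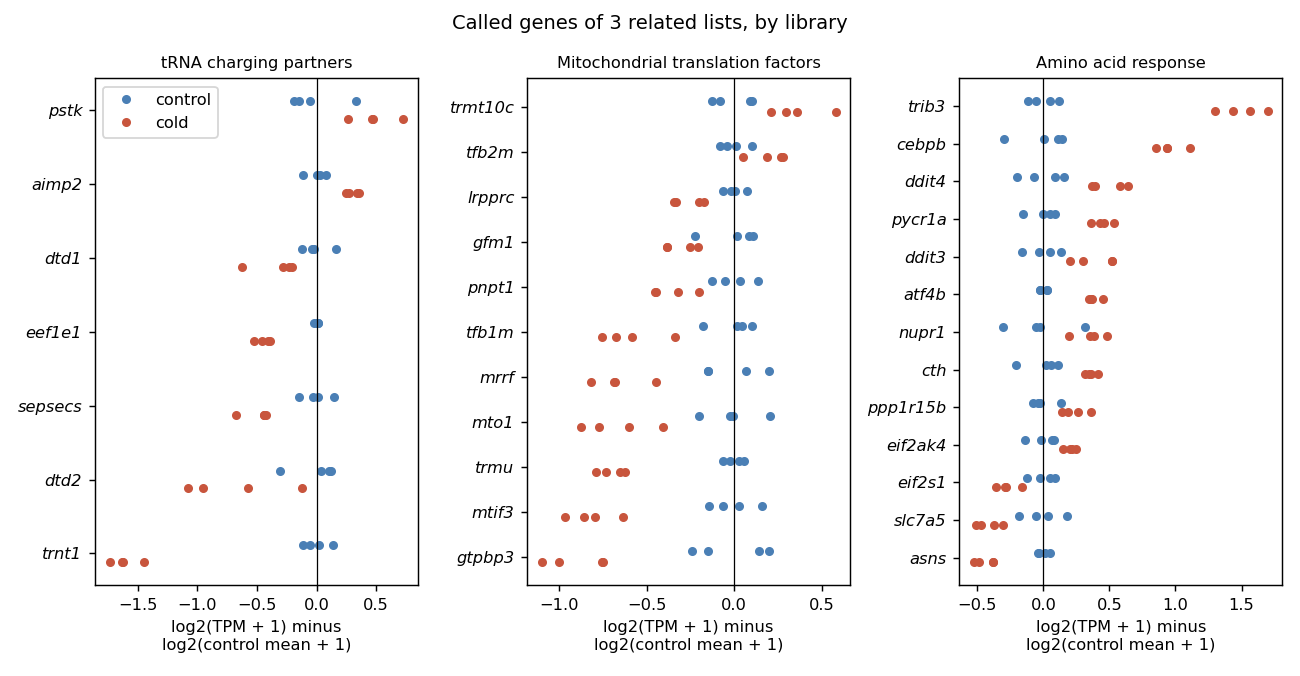
Levels of the called genes of the 3 related lists in each library (x axis, log2(TPM + 1) minus log2 of the control mean + 1; blue control, red cold), for tRNA charging partners (left), mitochondrial translation factors (middle) and the amino acid response (right). The fall of trnt1 (-1.61) and the rise of trib3 (1.502) are the widest shifts, and 9 of the 11 called mitochondrial factors lie to the left of control.

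Names bear on what was counted. The reference gene table holds all 34 members, 16 of them under a different symbol (aars1 for aars, lars1b for lars). There, 10 members overlap another gene. Among the fallen genes this holds for rars2, which overlaps slc35a1, and that gene measured 32.0 and 32.1 TPM in control and cold (log2 change 0.01, limma adjusted p = 0.962). Rows listed by number were no members by the rule, though 2 carry a synthetase symbol in the table. The mitochondrial threonine gene tars2 fell from 30.5 ± 1.48 to 26.1 ± 2.05 TPM (-0.22 ± 0.07 on the log2 scale, adjusted p by limma 0.0378; 0.161 after rescaling), and tars3, a second cytosolic threonine gene, measured 24.5 and 24.7 TPM (limma adjusted p = 0.928).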

How the data were processed

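Polyadenylated RNA of midbrain was sequenced in 8 libraries (4 control, 4 cold, grouped by the labels). TRIzol extraction, poly(dT) bead capture and a TruSeq library kit are given per the labels' protocols, and the aligner HISAT2 per the submitters' processing notes. Not given in the sources used here are the counting program, build, annotation, versions and how strand and shared reads were handled. The authors deposited 1 list of TPM values per library, with 29533 genes, each summing to 1000000. TPM keeps no depth, so depth is unknown and no counting interval is given.

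The 18863 genes whose control or cold mean reached 1 TPM were tested on log2(TPM + 1) over the 8 libraries by limma 3.58.1 (R 4.3.3; trended prior, no covariates). Calls were made at a two-sided Benjamini-Hochberg adjusted p under 0.05 over these genes. Changes are cold minus control, and the scale understates those of low genes. Ratios of paired genes were tested by exact permutation over the 70 splits of 4 against 4, and the proline pair (eprs and pars2) was added to the planned pairs. The fit was tested on simulated data with normal noise, where only genes of higher level were given changes, so low genes such as mars2 were not covered. The reference table (O_niloticus_UMD_NMBU) was used for names and neighbours, and gave a symbol to 6153 of 19370 genes listed by number. No sequences are shown.

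Members and lists were chosen with earlier results of these data known. All members entered the fits, counts and sums, and 1 is not reported here by name. From each related list the 6 called genes of lowest p and the pathway's sensors and scaffolds were named. The genes qrsl1, gatb, gatc, trmt10c, tfb2m, abhd16a, slc35a1, p2ry12, snap25, en1b, otx2b, prl, tars2 and tars3 were named outside this rule, after their values were seen. Alternatives were a pseudocount of 0.1, no filter, rescaling by the median of ratios, the replicate number as a block, leaving out each library, and leaving out control 4 and cold 2 together.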

Additional observations from a re-analysis of the deposited data

Results flagged for a closer look

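In 3 of the 68 groups of 4 libraries that the members give (34 genes in 2 groups), 1 library lay far from the other 3 by Dixon's test, and chance flags about 1 in 20 groups. The level of dars was 78.5 TPM in control 1 and between 82.8 and 83.2 TPM in the other control libraries. That of hars was 147 TPM in control 2 and between 119 and 122 TPM in the others. That of yars was 51.2 TPM in control 4 and between 57.2 and 57.7 TPM in the others. None of these 3 genes was called between groups, and the libraries differ from gene to gene.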

How the results depend on the processing

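The falls of rars2, vars2, sars2, nars2 and mars2 passed limma's test under all 13 alternatives, with adjusted p from 4.88e-04 to 0.0465. The other calls held in fewer, 9 of 13 for lars and for farsb, 5 for vars and 3 for yars2. Without the filter on low values yars2 had an adjusted p of 0.0640. The count of 9 called members ranged from 6 to 9 with a library left out, and was 6 without control 4 and cold 2 together. Counts of called charging partners ranged from 4 (without control 2) to 7 with a library left out. Mitochondrial translation factors gave 7 calls without control 4 and cold 2. The 10 rises of the amino acid response list became 8 with the replicate block, where 2025 of all 18863 genes rose. They became 8 of 41 without the filter, where 2344 of 27516 rose. Calls over all genes fell too, to between 5782 and 6387 with a library left out and to 5532 (29.4%) without control 4 and cold 2.

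Rescaling by the median of ratios moved the class medians to 0.0595 (cytosolic) and -0.10 (mitochondrial), by more than the spread between libraries, and shifted all genes by a like amount. It turned the sign of 7 uncalled cytosolic members, to 0.0710 (aars), 0.0313 (cars), 0.0434 (hars), 0.0789 (rars), 0.0486 (sars), 0.0396 (wars) and 0.0595 (yars). The change of aars was 0.0124 without control 4 and cold 2. With a library left out, aars ranged from -0.0481 to 0.0207, hars from -0.0875 to 0.0181 and rars from -0.0456 to 0.0109.

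Same-numbered libraries did not deviate together (r from -0.23 to 0.05 over genes). The labels do not say whether the numbers pair libraries, and with 4 libraries per group this check cannot decide it. With the replicate number as a block, limma called 5642 genes (29.9%) and 8 members. Under this block farsb (adjusted p = 0.0611), vars (0.0808) and yars2 (0.0884) did not pass, while iars (0.0477) and qars (0.0496) did. No blocked exact test of the paired ratios was run. The cause of the changed calls was not tested.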
